A study of Mus musculus with 12 samples.

Results

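Actin filaments give a cell its shape and its pull, and 39 mouse genes that encode actins or proteins that cut, cap, cross-link or contract actin filaments were followed here across all 4 groups of an experiment on bone-forming cells. The genes were taken by symbol from the deposited table of 56691 genes. All 39 had 1 entry each, and 38 passed the filter on low counts. The gene left out of the tests was Cnn1, which encodes calponin 1. The 39 genes are 6 actins, 8 myosin chains and 1 myosin kinase, 4 tropomyosins, and 6 calponins, transgelins and caldesmon. The others are 5 severing, depolymerizing or capping proteins, 3 monomer-binding proteins and 6 cross-linking or adhesion proteins. Particular attention was given to Dstn, which encodes destrin, to the related cofilin genes Cfl1 and Cfl2, and to 9 genes best known from smooth muscle.

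The cells were MC3T3-E1, a single mouse line of calvarial pre-osteoblasts that lays down and mineralizes a bone-like matrix. All groups were kept for 28 days in osteogenic medium. It held 50 µg/ml ascorbic acid, 0.1 µM dexamethasone and, as a source of phosphate, 10 mM beta-glycerophosphate (BGP), so the control cells had these agents too. From day 27, for 24 h, cells received 25(OH)D (25-hydroxyvitamin D, from which cells make the active hormone) with a further 4 mM BGP, or 25(OH)D with 100 µM ZK191784, or 25(OH)D alone, or none of these (control). The 25(OH)D dose was 100 µM in all 3 treated groups as labelled, and neither this unit nor that of the ZK191784 dose could be checked. There were 3 libraries per group, made by 3' mRNA-seq, which counts 1 tag near the end of each transcript. The labels do not say whether the 3 came from separate cultures, and p-values may therefore reflect technical spread alone.

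An actin filament grows by adding monomers at its barbed end and shrinks by losing them at its pointed end. Proteins of the cofilin family, which includes destrin, bind the older part of a filament, sever it and speed up the loss of monomers. Tropomyosins lie along the filament and shield it from cofilins, and caldesmon and calponins sit on the same filaments and restrain myosin. Non-muscle myosin II pulls on the filaments, under the control of its light chains and of the kinases that phosphorylate them. In osteoblasts this system sets cell spreading, adhesion to matrix and the shape change on the way to an osteocyte. Many smooth-muscle genes of the set are classic targets of serum response factor (SRF), which binds a short element called the CArG box and is switched on when free actin monomer runs low.

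The promoter windows of the genes that the results turn on are shown so that a reader can see which of these elements they hold. Windows of 300 bases (250 before and 50 after the start site, RefSeq, build GRCm38.p6) were found for 35 of the 39 genes, with 45 windows in all. Actb, Tagln, Actg2 and Myh11 were not among them. A CArG box (2 C, then 6 bases that are each A or T, then 2 G) was found in 7 of the 45 windows, against 1.63% of all 32851 windows. The 7 genes are shown with 10 bases on either side of the box, which is in capitals:
Actc1: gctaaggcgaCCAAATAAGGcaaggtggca
Myl9: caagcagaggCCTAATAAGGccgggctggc
Acta1: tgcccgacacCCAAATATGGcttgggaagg
Cnn2: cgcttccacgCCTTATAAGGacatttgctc
Myl6: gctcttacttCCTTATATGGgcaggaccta
Actg1: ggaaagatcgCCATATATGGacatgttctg
Vcl: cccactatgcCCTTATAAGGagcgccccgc
The boxes began between 47 bases (Actc1) and 227 bases (Vcl) before the start site. The windows of Dstn (chr2:143915081-143915380, plus strand), Cfl1 (chr19:5490205-5490504, plus strand), Cfl2 (chr12:54862828-54863127, minus strand) and Tpm1 (chr9:67049164-67049463, minus strand) held none, and are shown whole because the values of destrin beside the cofilins and the fall of Tpm1 are described below. Capitals mark GGGCGG or its reverse complement, the core of a GC box:
Dstn: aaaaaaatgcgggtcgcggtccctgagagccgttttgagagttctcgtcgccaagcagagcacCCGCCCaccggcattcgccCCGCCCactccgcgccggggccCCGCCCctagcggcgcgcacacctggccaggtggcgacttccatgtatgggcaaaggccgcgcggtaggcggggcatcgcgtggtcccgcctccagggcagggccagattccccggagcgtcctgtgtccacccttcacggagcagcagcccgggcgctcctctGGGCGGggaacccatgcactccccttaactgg
Cfl1: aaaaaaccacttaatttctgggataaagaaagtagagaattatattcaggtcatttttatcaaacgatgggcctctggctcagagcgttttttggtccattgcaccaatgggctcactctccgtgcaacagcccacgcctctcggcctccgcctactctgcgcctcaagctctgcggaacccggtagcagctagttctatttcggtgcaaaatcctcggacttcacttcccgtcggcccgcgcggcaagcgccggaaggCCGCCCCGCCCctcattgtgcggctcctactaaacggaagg
Cfl2: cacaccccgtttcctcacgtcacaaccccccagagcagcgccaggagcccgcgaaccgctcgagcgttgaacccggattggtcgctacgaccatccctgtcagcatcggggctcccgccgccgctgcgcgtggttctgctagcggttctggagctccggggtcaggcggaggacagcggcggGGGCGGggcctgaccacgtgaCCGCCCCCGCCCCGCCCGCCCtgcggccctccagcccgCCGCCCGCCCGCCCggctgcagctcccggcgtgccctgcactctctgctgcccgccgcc
Tpm1: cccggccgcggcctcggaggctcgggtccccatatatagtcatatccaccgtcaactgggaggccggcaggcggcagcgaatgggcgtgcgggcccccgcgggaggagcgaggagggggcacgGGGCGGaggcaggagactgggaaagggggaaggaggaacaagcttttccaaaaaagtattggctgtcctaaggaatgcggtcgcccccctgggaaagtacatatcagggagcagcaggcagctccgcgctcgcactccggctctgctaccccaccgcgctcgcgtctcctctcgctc
GGGCGG, read on both strands, was in 34 of the 45 windows and in 35.7% of all windows. The 6 bases AGGTCA, a single receptor-binding unit, were in 8 of the 45 and in 16.3% of all windows. A DR3 vitamin D response element, which is a pair of such units 3 bases apart, was in none of the 45 windows and in 0.0396% of all windows. A match only describes the letters of the window, and vitamin D receptor sites often lie far from the start site.

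The 12 libraries held between 3318723 and 5170980 counts, and 14394 genes were tested. The 39 genes took up 2.23, 1.83 and 2.01% of the counts with 25(OH)D plus BGP, 1.66, 1.73 and 1.85% with 25(OH)D plus ZK191784, 1.91, 2.13 and 2.27% with 25(OH)D alone and 1.54, 1.51 and 1.33% in control. Libraries of 1 group were not alike in RNA make-up. Counts of ribosomal protein genes, over those of pseudogenes and Gm-numbered genes, gave a log2 ratio of −1.75, −0.53 and −1.21 with BGP, −0.87, −1.22 and −1.67 with ZK191784, −0.53, −1.24 and −1.85 with 25(OH)D and −1.77, −1.88 and −0.66 in control. Values of members that ran with this ratio are given beside the results they touch. All 8 osteoblast markers (Runx2, Sp7, Bglap, Alpl, Col1a1, Ibsp, Spp1, Sparc) had counts in every group. Their summed level in CPM, the count relative to library size scaled by TMM, was 65386 to 76221 with BGP, 68117 to 72287 with ZK191784, 67325 to 77122 with 25(OH)D and 105682 to 130336 in control. Between 25(OH)D and control 2 of the 8 rose (Spp1, 3.92 ± 0.15 on the log2 scale, and Alpl, 0.93 ± 0.21) and 5 fell, from Runx2 at −1.07 ± 0.16 to Ibsp at −7.20 ± 0.43, with Bglap, Col1a1 and Sparc between them, by the test described next. Between ZK191784 and 25(OH)D 5 of the 8 rose and 1 (Spp1) fell, and between ZK191784 and control 1 rose (Spp1) and 0 fell. The part of these changes in the results on the actin genes was not tested. In bulk RNA, fewer cells that express a gene and less RNA per cell cannot be told apart.

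The addition of 25(OH)D changed a few of the 39 genes, led by destrin. With edgeR's quasi-likelihood test and Benjamini-Hochberg adjustment over all tested genes (adjusted p under 0.05), 10 of 38 members changed between 25(OH)D and control, against 8.68% of all tested genes. There were 7 that rose (4.76% of all genes did) and 3 that fell (3.93% of all genes did). Dstn, Cald1, Actb, Myh10, Actg2, Myl9 and Tagln rose, and Tpm1, Cnn3 and Myl10 fell. The groups did not overlap for 13 of the 38, against 21.9% of all tested genes. The median log2 fold change was 0.039 over the 38 genes and −0.049 over all tested genes. With the library ratio as a covariate 17 members were called, the further ones being Tagln2, Acta2, Capg, Tpm4, Tmsb10, Flnc and Cfl2. Calls over all 14394 tested genes also went up with the covariate, to 2857 from 1250. With only the 6 libraries of these groups 6 members were called, without Myh10, Tagln, Actg2 and Myl9, and 763 of 13144 genes in all. The plot of log2 fold changes shows the 38 genes in order.

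**Figure D1:**
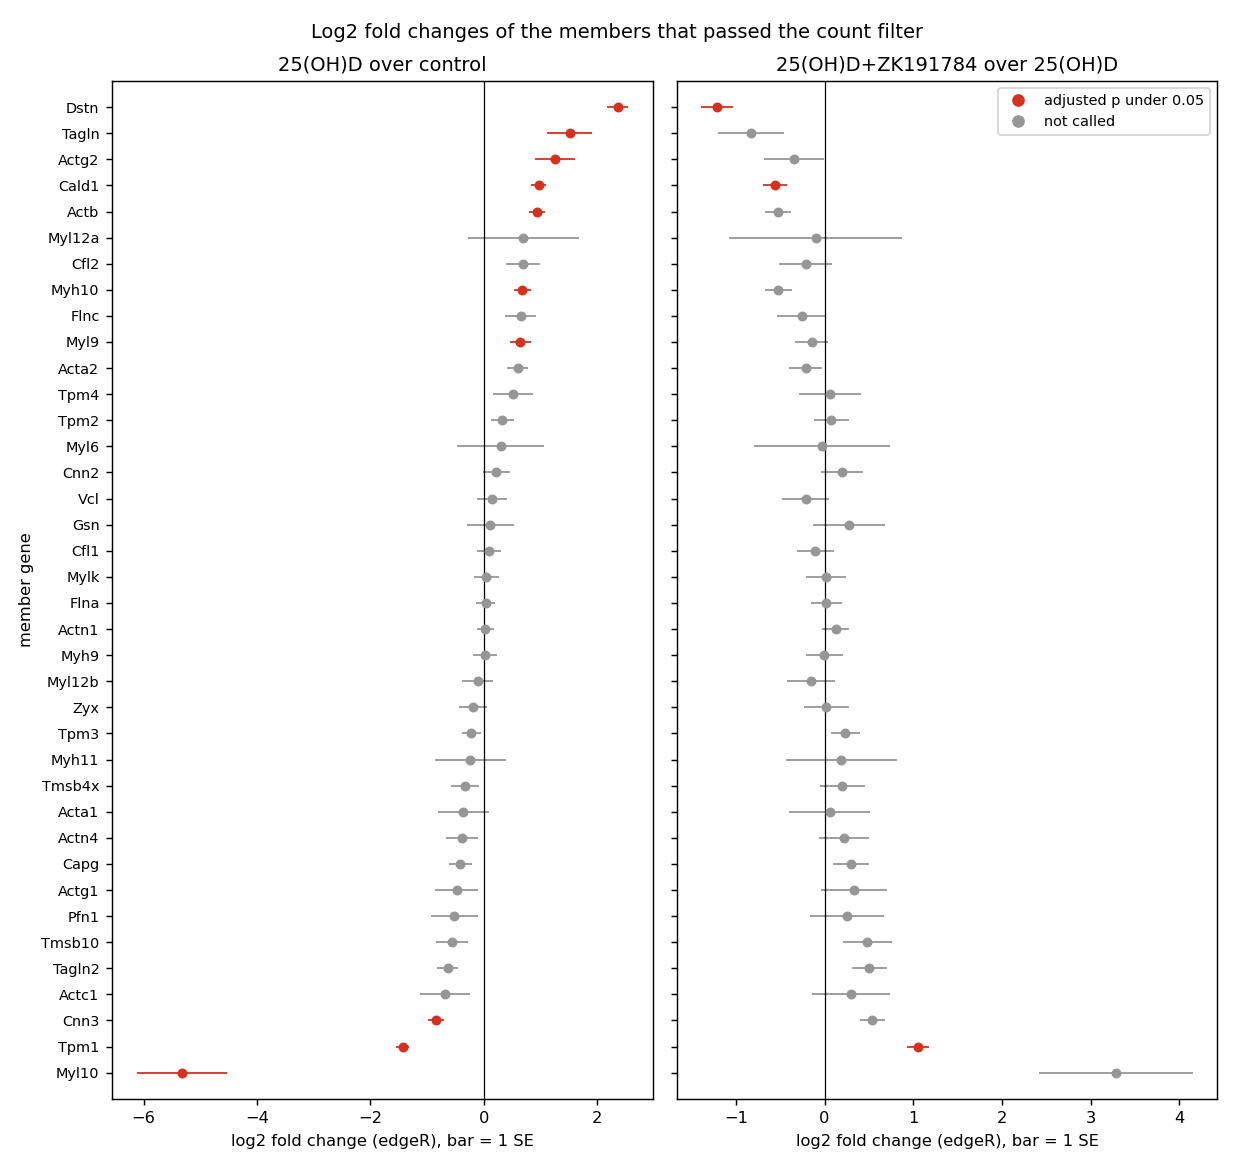
Log2 fold changes (edgeR) of the 38 members tested, with 25(OH)D over control on the left and 25(OH)D plus ZK191784 over 25(OH)D on the right; points are estimates, bars are 1 SE and red marks an adjusted p under 0.05. Dstn stands at 2.36 on the left and −1.21 on the right, Tpm1 at −1.43 and 1.05, and most members lie near 0 in both panels.

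Among the severing, depolymerizing and capping proteins, destrin stood apart from its relatives. Dstn had 909.9, 914 and 861 CPM with 25(OH)D plus BGP, 417, 436 and 485 CPM with 25(OH)D plus ZK191784, 769.7, 1179 and 1145 CPM with 25(OH)D and 179, 245 and 179 CPM in control. All 9 treated libraries lay above all 3 controls, and the 3 ZK191784 libraries lay between the control and the other treated libraries. Dstn was 5.13 times as high with 25(OH)D as in control (log2 fold change 2.36 ± 0.19, adjusted p = 5.67e-06).

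Cfl1, the cofilin of most non-muscle cells, did not move in this way. It had 141, 211 and 143 CPM with BGP, 158, 149.9 and 121 CPM with ZK191784, 189, 144 and 128 CPM with 25(OH)D and 153, 121 and 159 CPM in control. The 4 groups overlapped, and 25(OH)D and control did not differ beyond the spread (log2 fold change 0.09 ± 0.20, adjusted p = 0.855). Cfl2, the cofilin best known from muscle, had 25.2, 54.6 and 40.9 CPM with BGP, 48.5, 31.3 and 35.4 CPM with ZK191784, 42.8, 52.1 and 38.6 CPM with 25(OH)D and 18.2, 29.7 and 34.5 CPM in control. The 25(OH)D libraries were above the control libraries by a narrow gap, but the difference did not pass the test (log2 fold change 0.69 ± 0.30, adjusted p = 0.222). Gsn (gelsolin), which severs and caps filaments, and Capg, which caps them, both under the control of calcium, did not pass either. Their log2 fold changes were 0.12 ± 0.41 and −0.41 ± 0.20.

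**Figure D2:**
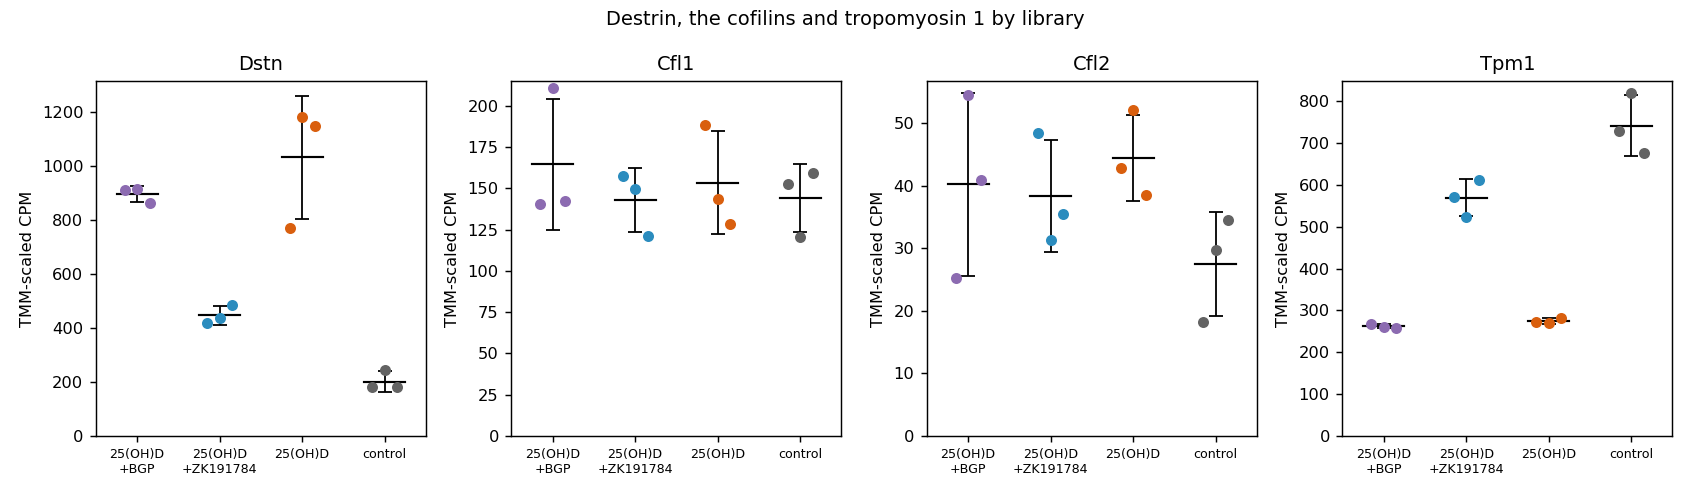
TMM-scaled CPM of Dstn, Cfl1, Cfl2 and Tpm1 in each library (points), with the mean (line) and SD (bars) of 3 libraries in each of the 4 groups. Dstn is lowest in control and next lowest with ZK191784, and its 25(OH)D and BGP libraries overlap. Tpm1 is highest in control and next highest with ZK191784, and the groups overlap for Cfl1.

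Because Dstn and the cofilins were counted in the same libraries, their ratio can be compared without scaling between libraries. There were 6.47, 4.34 and 6.03 Dstn counts for each Cfl1 count with BGP, 2.64, 2.91 and 4.00 with ZK191784, 4.08, 8.20 and 8.91 with 25(OH)D and 1.17, 2.03 and 1.12 in control. These are ratios of tag counts, and only their change between groups is read. The ratio was higher in every treated library than in every control library. Over the 4 groups it differed beyond the spread between libraries (exact permutation test over 15400 partitions, p = 0.00143, adjusted over 4 ratios 0.00286; the smallest p possible is 6.49e-05). The ratio of Dstn to Cfl2 differed as well (exact permutation p = 0.00474, adjusted 0.00632). All 4 ratios hold the same Dstn counts, so these tests are not separate from the test of Dstn itself. Between 25(OH)D and control the mean log2 ratio differed by 2.27 for Cfl1 and by 1.62 for Cfl2, with no overlap of the groups. For any pair of groups an exact permutation test of 3 against 3 cannot go below p = 0.1, and both comparisons reached it. Cfl1 and Cfl2 counts rose with the library ratio described above and Dstn counts fell with it (slopes 0.39, 0.45 and −0.23 log2 units for each unit of the log2 ratio, all 3 called). In each of the 4 groups the library with the highest library ratio had the lowest Dstn to Cfl1 value. Without those 4 libraries the exact permutation p was 0.00952 for Cfl1 and 0.0286 for Cfl2.

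The same comparison was made with 2 smooth-muscle genes. The log2 ratio of Dstn to Acta2 was 1.04 ± 0.25 with BGP, 0.13 ± 0.36 with ZK191784, 1.11 ± 0.48 with 25(OH)D and −0.66 ± 0.27 in control (SD, n = 3 each). The groups differed (exact permutation p = 0.000909, adjusted 0.00286), and Dstn moved further than Acta2. The log2 ratio of Dstn to Tagln was 6.79 ± 0.34 with BGP, 6.40 ± 0.43 with ZK191784, 6.78 ± 0.26 with 25(OH)D and 5.88 ± 0.34 in control (SD, n = 3 each). This difference was smaller and its support was weak (exact permutation p = 0.0424, adjusted 0.0424). Leaving out 1 library at a time gave exact permutation p from 0.0186 to 0.144 for Tagln, and leaving out the 4 libraries with the highest library ratio gave 0.276.

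**Figure D3:**
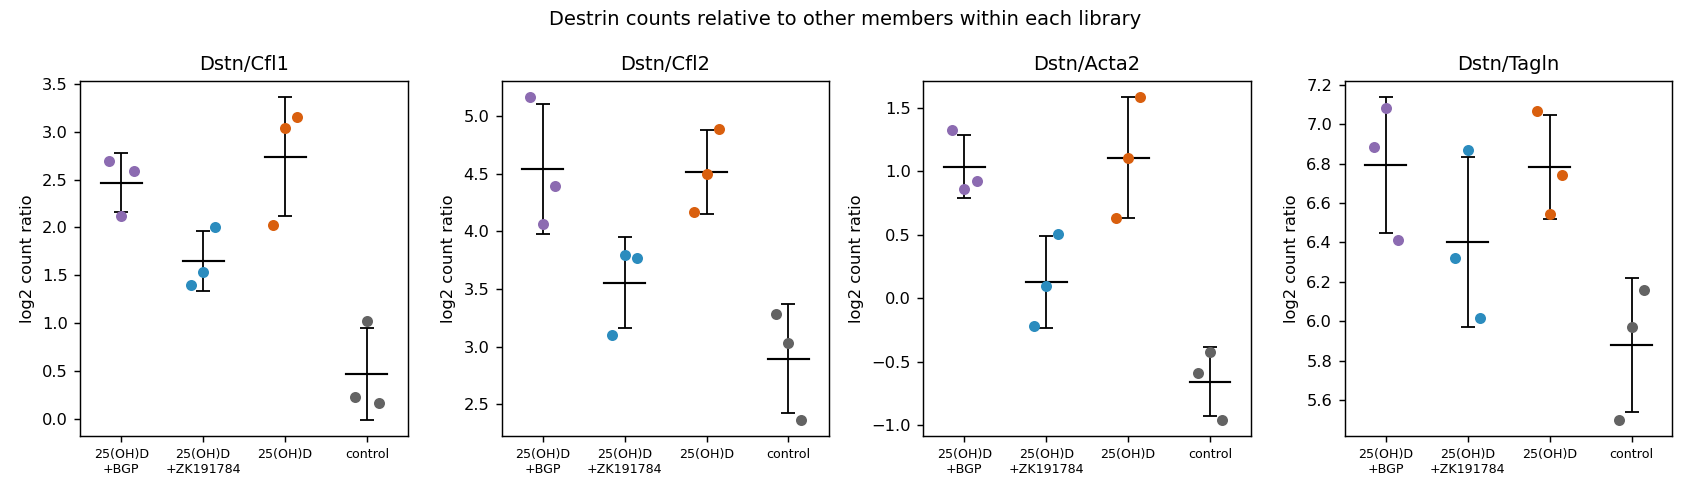
Log2 ratio of Dstn counts to the counts of Cfl1, Cfl2, Acta2 and Tagln within each library (points), with the mean (line) and SD (bars) of 3 libraries per group; the vertical axes differ and do not start at 0. For Cfl1 and Acta2 every treated library lies above every control library, and for Cfl2 and Tagln the ZK191784 libraries overlap the control libraries.

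The tropomyosins moved singly. Tpm1, which encodes several muscle and non-muscle tropomyosins from 1 gene, had 268, 259.9 and 258 CPM with BGP, 572, 524 and 613 CPM with ZK191784, 273, 269 and 283 CPM with 25(OH)D and 728, 820.3 and 676 CPM in control. The 4 groups did not overlap. The control libraries were highest and the ZK191784 libraries next, and the gap between the other groups was narrow. Tpm1 fell with 25(OH)D relative to control (log2 fold change −1.43 ± 0.12, adjusted p = 9.03e-06). Its level hardly followed the library ratio (slope −0.10, not called). A count at the 3' end covers the transcripts that share that end, so a change of isoform and a change of total output cannot be told apart. Tpm2, the smooth-muscle beta-tropomyosin, had 46.3, 47.7 and 31.2 CPM with 25(OH)D and 29.97, 39.2 and 30.7 CPM in control, and did not pass (log2 fold change 0.33 ± 0.20, adjusted p = 0.436). Tpm3 and Tpm4, the main non-muscle tropomyosin genes, did not pass either, at −0.22 ± 0.16 and 0.52 ± 0.35. Tpm3 has a near-identical copy, Tpm3-rs7, with an entry of its own, so its level is uncertain.

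Of the 2 cytoplasmic actins, Actb rose and Actg1 did not pass. Actb, which encodes beta-actin, had 9959.6, 8261 and 9378 CPM with BGP, 6829.6, 6939 and 7333 CPM with ZK191784, 8953, 11056 and 10309.6 CPM with 25(OH)D and 5412, 6059 and 4380.4 CPM in control. All treated libraries were above all controls, and Actb rose with 25(OH)D relative to control (log2 fold change 0.94 ± 0.14, adjusted p = 0.00109). Actb is a common reference gene in expression assays, and here it was 1.91 times as high with 25(OH)D as in control. Actg1, which encodes gamma-actin, had 25.9, 18.6 and 39.9 CPM with 25(OH)D and 53.5, 41.9 and 22.1 CPM in control, with overlap (log2 fold change −0.48 ± 0.38, adjusted p = 0.548). Its spread within groups ran against the library ratio (slope −0.71). Both cytoplasmic actins have processed copies with entries of their own (Actb-ps1 and Actg-ps1), between which reads may be split. The sarcomeric actins Acta1 (skeletal) and Actc1 (cardiac) did not pass, at −0.36 ± 0.46 and −0.69 ± 0.44, and also ran against the ratio (slopes −1.10 and −1.002).

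Some of the smooth-muscle genes were higher with 25(OH)D. Of the 9, 8 were tested, 4 rose (Cald1, Tagln, Actg2 and Myl9) and 0 fell, against 4.76% of all tested genes that rose, and the median log2 fold change was 0.62 over the 8 against −0.049 over all tested genes. Cald1, which encodes the caldesmon that restrains myosin on the filament and whose non-muscle form is widely expressed, had 3107, 3305 and 2933 CPM with BGP, 2232, 2239 and 2415 CPM with ZK191784, 3067, 3596 and 3467 CPM with 25(OH)D and 1658, 2019.7 and 1503 CPM in control. The treated libraries all lay above the controls, and Cald1 rose (log2 fold change 0.97 ± 0.13, adjusted p = 0.000516).

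Tagln, which encodes transgelin, a filament-bundling protein used as an early smooth-muscle marker, had 7.57, 6.64 and 10.03 CPM with BGP, 5.12, 3.62 and 7.39 CPM with ZK191784, 5.62, 12.5 and 10.6 CPM with 25(OH)D and 3.84, 3.79 and 2.38 CPM in control. It rose with 25(OH)D (log2 fold change 1.51 ± 0.39, adjusted p = 0.0302), resting on counts of 21, 52 and 40 with 25(OH)D and 16, 18 and 10 in control. The 25(OH)D library with the fewest Tagln counts was the one with the highest library ratio. Actg2, the enteric smooth-muscle actin, had 17.1, 47.1 and 26.8 CPM with BGP, 27.6, 28.4 and 20.003 CPM with ZK191784, 39.0, 35.7 and 21.7 CPM with 25(OH)D and 15.3, 14.1 and 10.7 CPM in control. It rose with 25(OH)D (log2 fold change 1.26 ± 0.35, adjusted p = 0.0437), and its spread ran with the library ratio (slope 0.53). Myl9, the regulatory light chain of smooth-muscle and non-muscle myosin II whose window holds a CArG box, had 107, 133 and 99.7 CPM with BGP, 107, 107 and 107 CPM with ZK191784, 98.4, 147 and 109.6 CPM with 25(OH)D and 85.4, 80.3 and 61.9 CPM in control. It rose with 25(OH)D (log2 fold change 0.64 ± 0.18, adjusted p = 0.0490). The other 6 genes with a box did not pass, and 3 of the genes that rose (Actb, Tagln and Actg2) had no window to read. The windows of Dstn, Cald1 and Myh10, which rose, and of Acta2 held no box, and only exact matches were counted.

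The calls of Tagln, Actg2 and Myl9 were fragile. Leaving out 1 library at a time ended the call of Tagln in 5 of 6 cases (without any control library, or without 25(OH)D 2 or 3; adjusted p 0.0682, 0.0705, 0.0865, 0.147 and 0.0703). The call of Actg2 ended without any control library or without 25(OH)D 1 or 2 (0.0858, 0.0972, 0.0960, 0.155 and 0.136). The call of Myl9 ended without any control library or without 25(OH)D 2 or 3 (0.0659, 0.0701, 0.109, 0.216 and 0.0597). The log2 fold changes stayed positive in all of these. Cald1 kept its call in all 6.

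Acta2, alpha smooth-muscle actin and the standard marker of contractile cells and myofibroblasts, had 364, 503 and 453 CPM with BGP, 485, 407 and 342 CPM with ZK191784, 497, 548 and 382 CPM with 25(OH)D and 269, 329 and 346 CPM in control. The 25(OH)D libraries were above the controls without overlap, but the difference did not pass (log2 fold change 0.60 ± 0.19, adjusted p = 0.0741). It passed with DESeq2 (0.0305), with no filter (0.0129), with the covariate (0.000764) and without 25(OH)D 3 (0.0346). Mylk, the kinase that switches smooth-muscle myosin on, had 1647, 1386 and 1199 CPM with 25(OH)D and 1238, 971 and 1898 CPM in control, with overlap (log2 fold change 0.044 ± 0.22, adjusted p = 0.938). Myh11, the smooth-muscle myosin heavy chain, had 5.62, 14.7 and 19.5 CPM with 25(OH)D and 22.5, 16.2 and 8.33 CPM in control (log2 fold change −0.24 ± 0.63, adjusted p = 0.875). Its spread within groups ran against the library ratio (slope −1.46). Cnn1 was near the limit of detection, with 1, 3 and 0 counts with BGP, 2, 1 and 0 with ZK191784, 3, 0 and 5 with 25(OH)D and 2, 1 and 0 in control. The summed 8 Cnn1 counts with 25(OH)D against 3 in control give a ratio of 3.00 with a 95% exact binomial interval of 0.719 to 17.5, which holds 1. So no rise was detectable for Myh11 and Cnn1, the members most restricted to mature smooth muscle. Low counts limit Cnn1, whereas Myh11 had 156 summed counts with 25(OH)D and 206 in control.

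**Figure D4:**
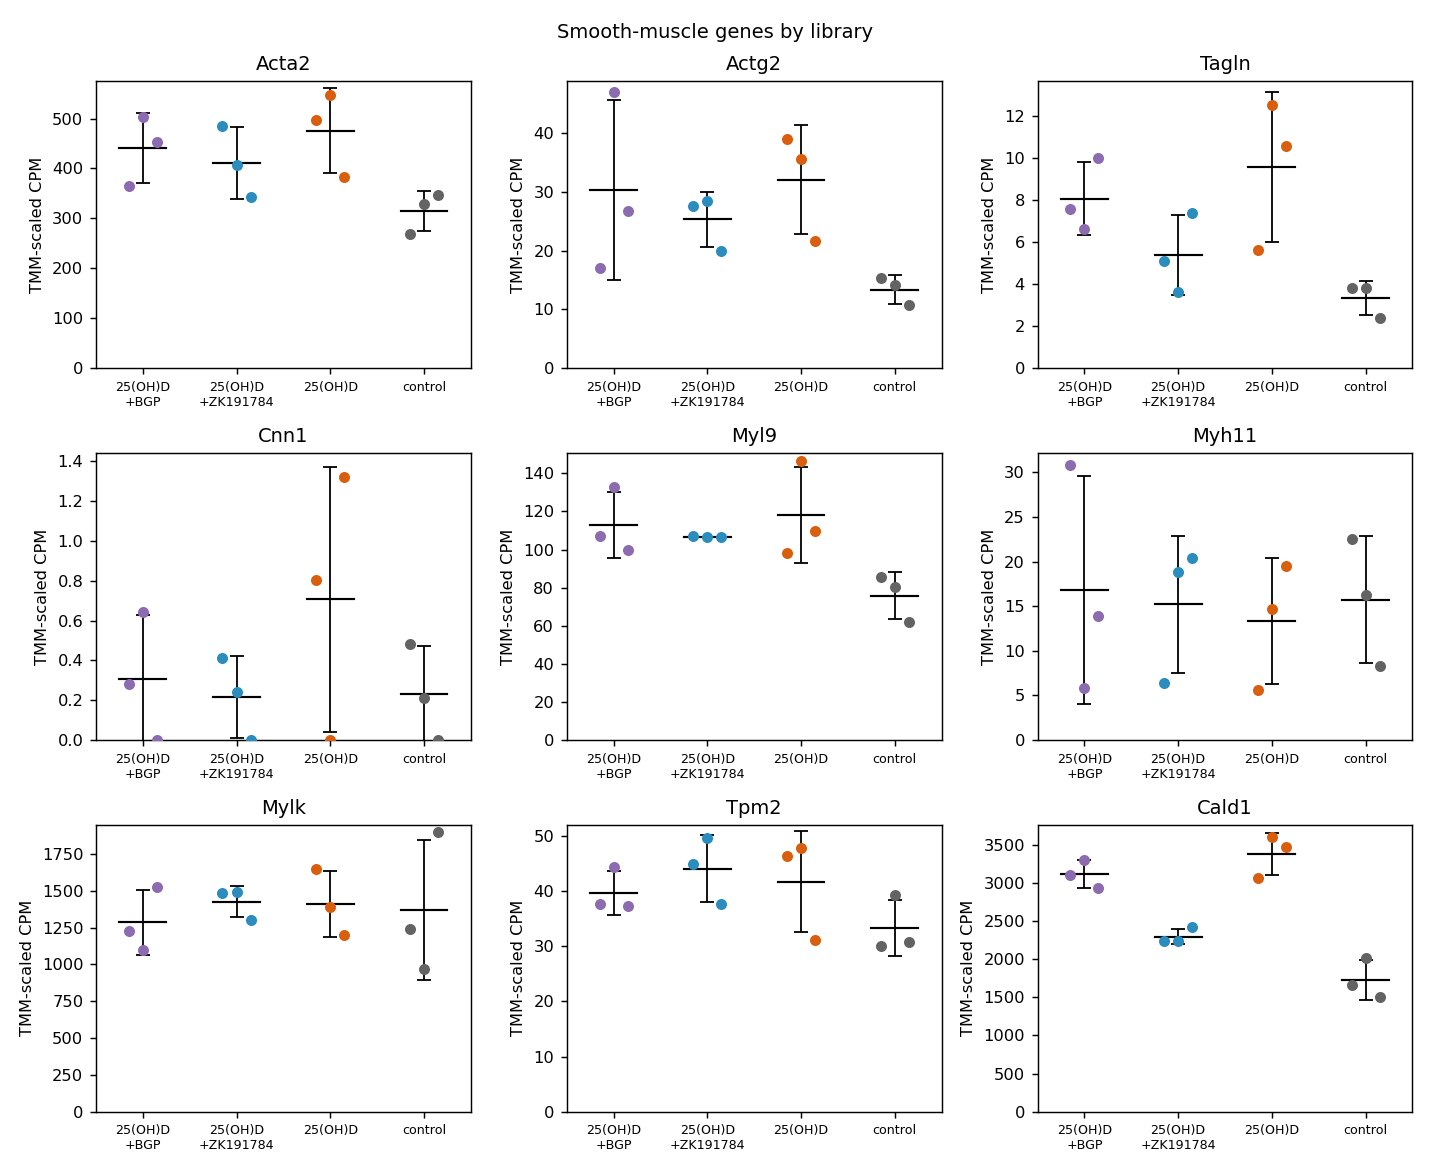
TMM-scaled CPM of the 9 smooth-muscle genes in each library (points), with the mean (line) and SD (bars) of 3 libraries per group; each panel has its own vertical axis from 0. Treated libraries lie above all controls for Cald1, Actg2 and Myl9, and groups overlap for Mylk, Myh11, Tpm2 and Cnn1.

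Markers of muscle and other cells, some of them members of the set, were looked at beside these values. Of the 8 smooth-muscle markers (Myh11, Acta2, Cnn1, Smtn, Des, Myocd, Lmod1, Tagln), all 8 had counts in every group. Their summed CPM was 483 to 609 with BGP, 461 to 579 with ZK191784, 504 to 673 with 25(OH)D and 390 to 470.4 in control. Myh11, Acta2, Cnn1 and Tagln among them are members of the set, so these sums repeat values given above. Without these members the summed raw counts were 1122 with BGP, 1249 with ZK191784, 1064 with 25(OH)D and 1286 in control. Those counts are not scaled for library size. Myocd, the coactivator that drives the smooth-muscle programme, had 0 to 3 counts per library. Smtn (smoothelin), a marker of contractile smooth muscle, fell with 25(OH)D (log2 fold change −0.93 ± 0.25, adjusted p = 0.0359), a call that ended in 5 of 6 cases when 1 library was left out (adjusted p 0.0211 to 0.152). Of the 9 skeletal-muscle markers, Myog and Ckm were at 0 in the 25(OH)D and control libraries, and the list's summed CPM was 4.81 to 8.45 with 25(OH)D and 4.04 to 8.39 in control. The 5 cardiac markers summed to 1.34 to 1.93 CPM with 25(OH)D and 1.43 to 2.53 CPM in control, with Tnni3 at 0. Adipocyte markers summed to 7.92 to 26.2 CPM with 25(OH)D and 6.53 to 9.04 CPM in control, and chondrocyte markers to 67.4 to 150.3 CPM with 25(OH)D and 100.2 to 244 CPM in control. Only 2 of the 6 adipocyte markers passed the filter, and Lpl (lipoprotein lipase) rose, with 82, 56 and 26 counts with 25(OH)D and 0, 1 and 0 in control (adjusted p = 0.000381), while Fabp4, a fatty acid carrier, fell (log2 fold change −2.72 ± 0.67, adjusted p = 0.0222). Of the 4 chondrocyte markers 2 passed the filter, and Col2a1, the cartilage collagen, fell (log2 fold change −4.68 ± 0.55, adjusted p = 0.000131). Macrophage markers summed to 159.7 to 313 CPM with 25(OH)D and 183 to 399 CPM in control, and endothelial markers to 16.8 to 41.2 CPM with 25(OH)D and 25.9 to 61.6 CPM in control. None of the 3 macrophage and 2 endothelial markers tested passed, and Cdh5, which defines endothelial cells, was at 0 in every library. The part of other cell types in the changes of the smooth-muscle genes was not tested further.

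Among the myosins, a non-muscle heavy chain rose and a rare light chain fell. Myh10, the heavy chain of non-muscle myosin IIB, had 51.1, 54.8 and 57.9 CPM with BGP, 38.9, 32.1 and 34.6 CPM with ZK191784, 50.8, 55.0 and 45.7 CPM with 25(OH)D and 33.8, 28.9 and 31.9 CPM in control. It rose with 25(OH)D (log2 fold change 0.68 ± 0.15, adjusted p = 0.0126), and the call ended without control 2 (0.0540) or without 25(OH)D 2 (0.0562). That call also ended with no filter (0.0777) and with only the 6 libraries of these groups (0.08875). Without the library with the highest library ratio in each group it ended as well (0.0501). Myh9, the heavy chain of the sister myosin IIA, did not differ detectably (log2 fold change 0.026 ± 0.21, adjusted p = 0.961), with 646, 744 and 856 CPM with 25(OH)D and 929.9, 707 and 570.0 CPM in control.

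Myl10, a little studied regulatory light chain, had 5, 2 and 0 counts with BGP, 16, 10 and 12 with ZK191784, 2, 0 and 1 with 25(OH)D and 46, 71 and 35 in control. The 3 summed counts with 25(OH)D against 152 in control, scaled for library size, make control 45.1 times as high (95% exact binomial interval 15.1 to 221, counting error only). The call was an adjusted p of 0.000894, and the fitted log2 fold change of −5.32 depends on the prior count. Myl6, Myl12a and Myl12b, the light chains of non-muscle myosin, did not pass. Myl6 and Myl12a spanned wide ranges within groups, and these followed the library ratio (slopes 1.88 and 2.47). Myl12a, for instance, had 393, 189 and 44.9 CPM with 25(OH)D and 38.6, 41.3 and 307 CPM in control.

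Of the calponins and transgelins outside smooth muscle, 1 fell. Cnn3, the acidic calponin of non-muscle cells, had 102, 107 and 126 CPM with BGP, 186, 185 and 189 CPM with ZK191784, 125, 148 and 113 CPM with 25(OH)D and 223, 219.6 and 250.03 CPM in control. All treated libraries were below all controls, and Cnn3 fell with 25(OH)D (log2 fold change −0.84 ± 0.14, adjusted p = 0.00189). Tagln2, the transgelin of non-muscle cells, had 214, 269.8 and 323 CPM with 25(OH)D and 463, 443 and 349.7 CPM in control, without overlap, and did not pass (log2 fold change −0.64 ± 0.19, adjusted p = 0.0620). Its relative Tagln had the opposite sign. Cnn2 was at 0.22 ± 0.24 and did not pass.

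None of the 3 monomer-binding proteins and none of the 6 cross-linking or adhesion proteins passed with 25(OH)D. Pfn1 (profilin, which feeds monomers to growing ends) was at −0.52 ± 0.42, and Tmsb4x and Tmsb10 (thymosins, which hold monomers in reserve) were at −0.33 ± 0.26 and −0.56 ± 0.28. All 3 ran against the library ratio, Pfn1 most (slope −1.02). The filamins Flna and Flnc, which cross-link filaments into nets, were at 0.034 ± 0.17 and 0.65 ± 0.28. The alpha-actinins Actn1 and Actn4, which bundle stress fibres, were at 0.027 ± 0.15 and −0.39 ± 0.28. The focal adhesion proteins Vcl (vinculin) and Zyx (zyxin) were at 0.14 ± 0.26 and −0.19 ± 0.25. Their adjusted p lay between 0.210 (Flnc) and 0.944.

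The further 4 mM BGP made no detectable difference to these genes. Between 25(OH)D plus BGP and 25(OH)D, 0 of 38 members and 0% of all 14394 tested genes were called with edgeR, and DESeq2 called 0 genes as well. At an unadjusted p under 0.05 there were 0 members and 268 genes in all. The groups did not overlap for 2 members (Tpm1 and Tpm3), against 6.04% of all tested genes. Dstn averaged 895 ± 29.3 CPM with BGP and 1031 ± 227 CPM with 25(OH)D (SD, n = 3 each; log2 fold change −0.20 ± 0.18). For the other genes described in full the log2 fold changes were 0.10 ± 0.20 (Cfl1), −0.14 ± 0.30 (Cfl2), −0.11 ± 0.19 (Acta2), −0.078 ± 0.34 (Actg2), −0.24 ± 0.37 (Tagln), −0.064 ± 0.18 (Myl9), 0.32 ± 0.63 (Myh11), −0.14 ± 0.22 (Mylk), −0.071 ± 0.20 (Tpm2) and −0.12 ± 0.13 (Cald1). The adjusted p was 0.9999 for all 38 members tested. All cells already had 10 mM BGP in the medium, so the comparison asks only about the extra dose.

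Adding ZK191784, a compound the labels give by its code name, lowered Dstn and raised Tpm1 relative to 25(OH)D alone. This comparison shares the 25(OH)D libraries with that of 25(OH)D and control, so a library that is high by chance moves both in opposite directions. Between 25(OH)D plus ZK191784 and 25(OH)D, 3 of 38 members were called, against 3.53% of all tested genes. Tpm1 rose (1.42% of all genes did), and Dstn and Cald1 fell (2.11% of all genes did). The groups did not overlap for 9 members, against 17.6% of all tested genes, and the median log2 fold change was 0.041 over the 38 against 0.022 over all. With the library ratio as a covariate 10 members were called, and calls over all genes went up to 1650 from 508. DESeq2 called 7 members and 797 genes in all, the further members being Actb, Cnn3, Myh10 and Myl10.

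Dstn averaged 446 ± 35.4 CPM with ZK191784 and 1031 ± 227 CPM with 25(OH)D (SD, n = 3 each; log2 fold change −1.21 ± 0.18, adjusted p = 0.00193). It was therefore below the 25(OH)D level and above the control level, and it was the only member called between ZK191784 and control (log2 fold change 1.15 ± 0.18, adjusted p = 0.0100; 1 of 38, against 0.723% of all tested genes). That last call ended without control 1 (0.0778) or without ZK191784 2 (0.0580), and when only the 6 libraries of these groups were fitted. Tpm1 averaged 569 ± 44.7 CPM with ZK191784 and 275 ± 7.25 CPM with 25(OH)D (log2 fold change 1.05 ± 0.12, adjusted p = 0.000336). Its 3 ZK191784 libraries were still below the controls, a difference that did not pass (log2 fold change −0.38 ± 0.12, adjusted p = 0.307). Cald1 averaged 2295 ± 104 CPM with ZK191784 and 3377 ± 275 CPM with 25(OH)D (log2 fold change −0.56 ± 0.13, adjusted p = 0.0384). Its call ended when any 1 of the 6 libraries was left out (adjusted p 0.0514, 0.202 and 0.103 without 25(OH)D 1, 2 and 3, and 0.180, 0.172 and 0.105 without ZK191784 1, 2 and 3). The calls of Dstn and Tpm1 held in all 6 cases.

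The remaining genes called with 25(OH)D did not pass between ZK191784 and 25(OH)D. Actb was at −0.52 ± 0.14 (adjusted p = 0.0771), Cnn3 at 0.54 ± 0.14 (0.0603) and Myh10 at −0.52 ± 0.15 (0.0935), each without overlap of the groups. Myl10 had 38 summed counts with ZK191784 and 3 with 25(OH)D, a ratio of 10.8 (95% exact binomial interval 3.44 to 54.9, counting error only), with an adjusted p of 0.0639. Tagln was at −0.83 ± 0.38 (0.427), Actg2 at −0.34 ± 0.34 (0.886) and Myl9 at −0.15 ± 0.18 (0.919), with overlap. Of the other genes described in full, Cfl1 was at −0.10 ± 0.20, Cfl2 at −0.21 ± 0.30, Acta2 at −0.21 ± 0.19, Myh11 at 0.19 ± 0.63, Mylk at 0.014 ± 0.22 and Tpm2 at 0.077 ± 0.20. The ratio of Dstn to Cfl1 was lower with ZK191784 than with 25(OH)D (difference −1.09 on the log2 scale), as was that of Dstn to Cfl2 (−0.96), both without overlap (exact permutation p = 0.1, the smallest that 3 against 3 allows).

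Against control, the combination of 25(OH)D and BGP gave 7 called members of 38, against 8.25% of all tested genes. Dstn, Cald1, Actb and Myh10 rose (3.90% of all genes did) and Tpm1, Cnn3 and Myl10 fell (4.35% of all genes did). The groups did not overlap for 13 members, against 21.0% of all genes. Dstn was at 2.16 ± 0.19 (adjusted p = 1.27e-05), Cald1 at 0.85 ± 0.13 (0.00135), Actb at 0.80 ± 0.14 (0.00347) and Myh10 at 0.79 ± 0.15 (0.00490). Tpm1 was at −1.50 ± 0.12 (7.51e-06) and Cnn3 at −1.05 ± 0.14 (0.000425). Myl10 had 7 summed counts with BGP and 152 in control, which makes control 22.2 times as high (95% exact binomial interval 10.5 to 56.2, counting error only). These libraries share the controls with the comparison of 25(OH)D alone. Of the smooth-muscle genes that 25(OH)D alone raised, Tagln (1.27 ± 0.39, 0.0726), Actg2 (1.18 ± 0.35, 0.0606) and Myl9 (0.58 ± 0.18, 0.0804) did not pass here, and Acta2 was at 0.48 ± 0.19. Actg2 passed with RLE scaling (0.0487), no filter (0.000585), the covariate (0.00328), DESeq2 (0.0128) and without BGP 1 (0.0157). Tagln and Myl9 passed with DESeq2 (0.0267 and 0.0249) and with the covariate (0.00201 and 0.00191), and Acta2 passed with the covariate (0.0135). Cfl1 and Cfl2 were at 0.19 ± 0.20 and 0.55 ± 0.30, Myh11 at 0.084 ± 0.62, Mylk at −0.092 ± 0.22 and Tpm2 at 0.25 ± 0.20. ZK191784 and control differed in few of these genes. The groups did not overlap for 9 members, against 11.8% of all genes. Cald1 was at 0.41 ± 0.13 there, Cfl1 at −0.013 ± 0.20, Cfl2 at 0.48 ± 0.30, Acta2 at 0.39 ± 0.19, Actg2 at 0.92 ± 0.35, Tagln at 0.68 ± 0.40, Myl9 at 0.49 ± 0.18, Myh11 at −0.051 ± 0.62, Mylk at 0.058 ± 0.22 and Tpm2 at 0.40 ± 0.20, and none of them passed. With the covariate Cald1 (0.0138), Myl9 (0.0242) and Actg2 (0.0446) did.

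The wider actin pathway was read from 7 further lists of genes. Their counts between 25(OH)D and control are to be set against the 4.76% of all tested genes that rose and the 3.93% that fell. Between 25(OH)D and control, the Arp2/3 complex and its activators, which branch filaments, had 1 of 17 tested genes higher (Arpc2, a subunit of the complex, 0.79 ± 0.15, adjusted p = 0.00514) and 0 lower. That is near the share over all genes and is no result about the list, and the call of Arpc2 ended with only the 6 libraries of these groups (0.0687). Among formins and other elongators, 1 of 16 rose (the formin Inf2, 1.21 ± 0.29) and 2 fell, the 1 that rose again being near the share over all genes. The adjusted p of Inf2 ran over 0.000931 to 0.119 when 1 library was left out. Fhod1, a formin of stress fibres, had 109, 85.3 and 106 CPM with 25(OH)D and 461, 333 and 392 CPM in control (log2 fold change −1.98 ± 0.22, adjusted p = 8.62e-05). Enah, which protects growing ends from capping, fell as well (log2 fold change −0.84 ± 0.13, adjusted p = 0.000863). Among capping, recycling and cofilin regulators, 4 of 24 rose and 0 fell. Add1 and Add3, adducins that cap filaments at the membrane skeleton, were at 1.22 ± 0.13 and 0.80 ± 0.14 (adjusted p = 6.67e-05 and 0.00305). Ssh1, the slingshot phosphatase that activates cofilins and destrin, rose by a small amount (log2 fold change 0.51 ± 0.13, adjusted p = 0.0305). Its call ended when any 1 of the 6 libraries was left out (adjusted p 0.0521 to 0.0938). The 4th was Eps8, a capping and bundling protein (log2 fold change 1.58 ± 0.40, adjusted p = 0.0263), whose adjusted p without 1 library ran over 0.0201 to 0.108.

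Among SRF, its cofactors and immediate targets, 5 of 20 rose and 1 fell, against 4.76% and 3.93% of all tested genes. Of the 20, 11 had a log2 fold change above 0, and the median was 0.22 against −0.049 over all tested genes. Srf itself did not pass (log2 fold change −0.25 ± 0.49, adjusted p = 0.828). Egr1, an immediate early transcription factor, rose (log2 fold change 0.81 ± 0.15, adjusted p = 0.00322), as did Ier2, another immediate early gene (log2 fold change 1.22 ± 0.25, adjusted p = 0.00804). Mrtfa, the monomer-sensing cofactor of SRF, rose too (log2 fold change 1.24 ± 0.27, adjusted p = 0.0121), with adjusted p of 0.00713 to 0.0589 when 1 library was left out. Some other genes of the list had lower levels with 25(OH)D, but only 1 of the 20 was called lower. Ier3, Ccn1 and Fhl1 are given by their levels only, not as calls, and outside the rule that named the other genes. Ier3, also an immediate early gene, had 129, 119 and 110 CPM with 25(OH)D and 147, 161 and 155 CPM in control. Ccn1 had 13.4, 14.0 and 10.8 CPM with 25(OH)D and 19.7, 20.2 and 23.1 CPM in control. Fhl1 had 4.01, 3.37 and 3.43 CPM with 25(OH)D and 7.91, 9.48 and 9.99 CPM in control. Ccn2, which encodes a matrix growth factor also controlled by YAP, had 670, 156 and 47 counts with 25(OH)D and 2, 0 and 4 in control. All 3 treated libraries were far above control but differed widely among themselves (log2 fold change 7.29 ± 1.43, adjusted p = 0.00631). Leaving out 1 library moved this value between 5.69 and 8.23, and the call ended with no filter (0.0719). The highest of the 3 was the library with the highest library ratio.

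Among focal adhesion and integrin genes, 2 of 25 rose and 1 fell, against 4.76% and 3.93% of all tested genes, so these counts are no result about the list. Parva, the integrin-linked protein parvin, rose (log2 fold change 1.01 ± 0.23, adjusted p = 0.0133), with adjusted p of 0.000507 to 0.0814 when 1 library was left out. Itga1, the alpha-1 collagen-binding integrin, had 430.03, 500.5 and 422 CPM with 25(OH)D and 59.0, 67.0 and 72.3 CPM in control (log2 fold change 2.77 ± 0.15, adjusted p = 2.30e-07). Itgav, the alpha-V integrin that binds osteopontin and bone sialoprotein, fell (log2 fold change −1.09 ± 0.17, adjusted p = 0.00108). Among bundlers, membrane linkers and other cross-linkers, 3 of 26 rose and 3 fell. Synpo, the stress-fibre protein synaptopodin, rose (log2 fold change 1.82 ± 0.15, adjusted p = 9.03e-06). Palld, which bundles stress fibres, fell (log2 fold change −0.65 ± 0.13, adjusted p = 0.00647; 0.0516 with only the 6 libraries), and Fscn1, the filopodial bundler fascin, rose (log2 fold change 1.27 ± 0.29, adjusted p = 0.0134) with adjusted p of 0.00527 to 0.0661 when 1 library was left out. In the list of intermediate filaments and microtubules, 0 of 14 rose and 4 fell, with a median of −0.52 against −0.049 over all tested genes. Those 4 were Tubb3 (−2.67 ± 0.36), Tubb5 (−0.70 ± 0.12), both beta-tubulins, Map1b (−1.95 ± 0.31), a microtubule-binding protein, and Vim (−0.86 ± 0.19), which encodes vimentin. The adjusted p of Vim ran over 0.00604 to 0.0748 when 1 library was left out.

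Between ZK191784 and 25(OH)D, 1.42% of all tested genes rose and 2.11% fell. The elongators had 2 of 16 genes higher and 1 lower, and the SRF list 2 of 20 and 1. The adhesion list had 1 of 25 higher and 1 lower, and the bundlers and linkers 1 of 26 and 1. The capping list had 0 of 24 higher and 1 lower, and the Arp2/3 list 0 of 17 and 1. The list of intermediate filaments and microtubules had 1 of 14 higher and 0 lower. With so few calls per list, no list is singled out. The genes named next kept their call whichever library was left out. Fhod1 (1.27 ± 0.22) and Enah (0.73 ± 0.13) rose among the 16 elongators. Tns1, the adhesion protein tensin 1, rose (0.89 ± 0.13) and Itga1 fell (−1.68 ± 0.14) among the 25 adhesion genes. Synpo fell (−1.41 ± 0.15) among the 26 bundlers and linkers. Add1 (−0.75 ± 0.13) fell, and Ier3 (1.27 ± 0.12), an immediate early gene, and Map1b (1.88 ± 0.31) rose. Their adjusted p lay between 3.25e-05 and 0.00543. Calls of Arpc2 (−0.63 ± 0.15), Inf2 (−1.23 ± 0.29), Fhl1 (1.57 ± 0.31) and Egr1 (−0.58 ± 0.15) ended without at least 1 of the 6 libraries, with adjusted p up to 0.195, 0.166, 0.0736 and 0.224.

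Within groups many of the actin genes varied with the library ratio. With the groups fitted, the slope on the ratio was called for 27 of 38 members (71.1%), 11 positive and 16 negative, and for 51.5% of all tested genes. The strongest positive slopes were those of Myl12a, Myl6, Gsn (0.96) and Tpm4 (0.84), and the strongest negative ones those of Myh11, Acta1, Pfn1 and Actc1. The ratio was itself computed from these libraries, so the slopes are a description of how the members vary together. Tpm1, Cald1, Cnn3, Myh10 and Myl9 had slopes between −0.12 and 0.087, none called. Dstn and Actb had slopes of −0.23 and −0.23, both called and both small beside their differences between 25(OH)D and control.

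**Figure D5:**
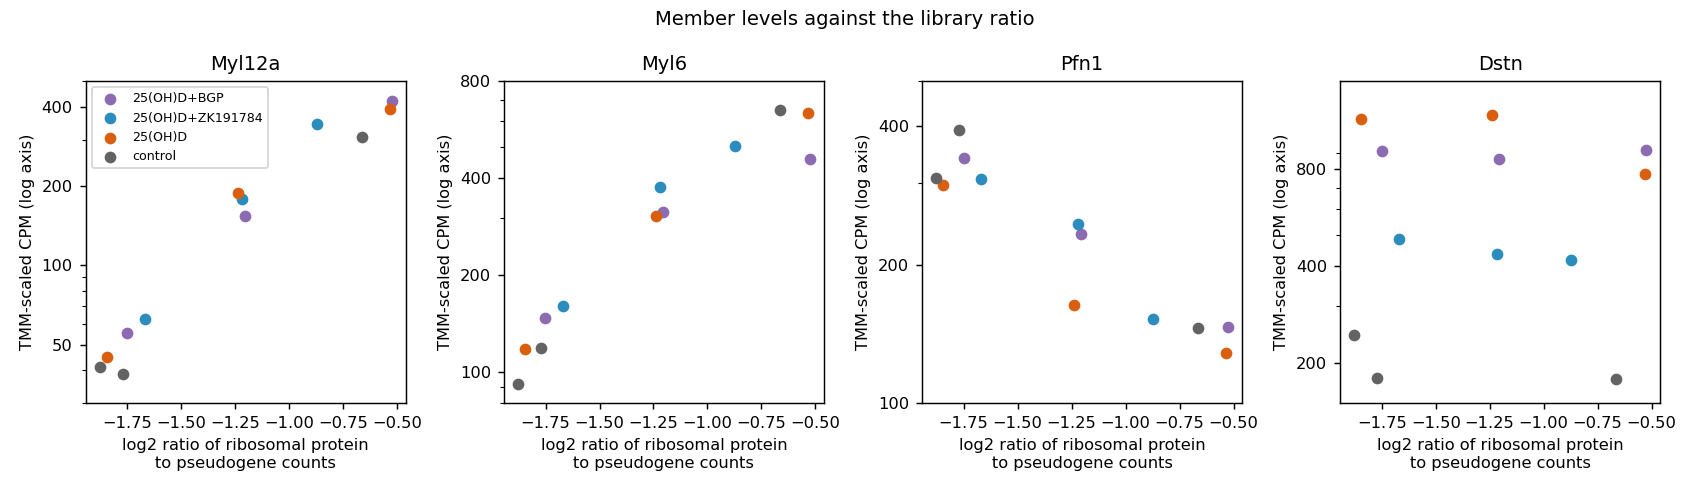
TMM-scaled CPM (log axis, 1 panel per gene) of Myl12a, Myl6, Pfn1 and Dstn against the log2 ratio of ribosomal protein to pseudogene and Gm-numbered gene counts, with 1 point per library coloured by group. Myl12a and Myl6 climb with the ratio and Pfn1 declines whatever the group, while for Dstn the control libraries, the ZK191784 libraries and the other treated libraries stay apart at any ratio.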

How the data were processed

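RNA of MC3T3-E1 cells, extracted as the labels describe, was made into 12 QuantSeq 3' mRNA-seq libraries, 3 for each of 4 groups. The values used are raw counts per gene and library as deposited. Per the submitters' processing notes, STAR 2.7.9a, featureCounts of Subread 2.0.3, DESeq2 1.38.2 and the build mm39 were used, with no roles given. No source used here states the strand setting or annotation release, so overlapping and antisense genes cannot be told apart, and reads of near-identical copies may be split between them.

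Of 56691 genes, 20212 had 0 counts in every library, and 882 entries repeated a symbol and were kept apart. No member was among them. filterByExpr (min.count 10, min.total.count 15) left 14394 genes with 99.4% of the counts. edgeR 4.0.16 in R 4.3.3 was used with TMM scaling and a robust quasi-likelihood fit over all 12 libraries, with 1 coefficient per group and no block, and the Benjamini-Hochberg adjustment ran over all tested genes (threshold 0.05). The common biological coefficient of variation was 0.292. SEs are approximate: the size of the log2 fold change over the root of F. Ratios of counts were taken after adding 0.5 to each and tested by exact permutation, one-sided on F over 4 groups and two-sided between 2. Binomial intervals cover counting error only, and 3 libraries per group limit the precision. Windows come from RefSeq. The files' coordinates on mm39 were not used.

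The members, the lists and the library ratio were chosen with earlier results of these data known. The cofilins, Dstn and the smooth-muscle genes were described whatever their result, with up to 10 further called members by smallest p, and up to 4 called genes by smallest p from each other list; 1 list and 1 gene that the rule names are not reported here. Alternatives were RLE scaling, no filter, a stricter one (CPM of 2 or more in 3 libraries), DESeq2 1.42.0, a replicate block, the library ratio as a covariate, only the 6 libraries compared, and leaving out each library. Leaving out the library with the highest ratio in each group, and applying the alternatives to list genes, were added after seeing the data. The method was tested on simulated data. matplotlib 3.10.9 (Python 3.11.15) drew the figures.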

Additional observations from a re-analysis of the deposited data

How the results depend on the processing

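The members called between 25(OH)D and control numbered 10, or 17 with the library ratio as a covariate, 6 with only the 6 libraries compared, and 6 to 10 when 1 library was left out. Between ZK191784 and 25(OH)D there were 3, or 5 with no filter, 10 with the covariate, 7 with DESeq2 and 2 whichever library was left out. Between BGP and control there were 7, or 14 with the covariate and 7 to 8 without 1 library. Between ZK191784 and control there was 1, or 3 with no filter, 9 with the covariate, 2 with DESeq2, 0 with only the 6 libraries and 0 to 1 without 1 library. Over all genes, the covariate gave 2857, 1650, 2689 and 676 calls in these 4 comparisons, against 1250, 508, 1187 and 104, and 6 against 0 between BGP and 25(OH)D. Only the 6 libraries gave 763, 712 and 42 in the 3 comparisons with control. DESeq2 gave 797 between ZK191784 and 25(OH)D, where no filter gave 609. It gave 264 between ZK191784 and control, where no filter gave 220. Leaving out 1 library gave as few as 813, 269, 794 and 34. The cause of these differences was not tested.

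Same-numbered libraries did not deviate together (18 pairs, r from −0.706 to 0.612, 4 over 0.1, and 3 of 12 libraries closest to their own number). The libraries with the highest library ratio in each group deviated together instead (r from 0.55 to 0.66 between them). Such a spread could hide a shared culture or day, so this check cannot tell whether equal numbers pair the libraries. A replicate block gave 8 called members between 25(OH)D and control, without Tagln and Myl9, and 2 between ZK191784 and 25(OH)D, without Cald1. It gave 0, 7 and 1 in the other comparisons. Over all genes the block gave 953 calls between 25(OH)D and control and 900 between BGP and control. It gave 334 and 56 in the 2 comparisons with ZK191784. For the ratio of Dstn to Tagln the exact permutation p was 0.0868 with the block, 0.276 without the libraries of highest ratio, and 0.0186 to 0.144 without 1 library.

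Signs turned for genes whose log2 fold change was small beside its error. With the covariate, Cfl1, Mylk and Myh11 were at −0.014, −0.0067 and 0.069 between 25(OH)D and control, and Myh11 at 0.26 between ZK191784 and control. Without the libraries of highest ratio Mylk was at 0.12 between BGP and 25(OH)D and 0.39 between BGP and control, and Cfl1 and Myh11 at 0.016 and 0.050 between ZK191784 and control. There no filter gave 0.024 for Cfl1 and 0.00013 for Myh11, and the filter at a CPM of 2 gave 0.010 for Cfl1. When 1 library was left out, log2 fold changes between 25(OH)D and control ran from −0.084 to 0.21 for Cfl1, −0.61 to 0.13 for Myh11, −0.17 to 0.37 for Mylk and −0.95 to 0.12 for Srf. Between BGP and 25(OH)D they ran from −0.25 to 0.0086 for Acta2, −0.52 to 0.20 for Actg2, −0.10 to 0.28 for Cfl1, −0.41 to 0.10 for Cfl2, −0.43 to 0.75 for Myh11, −0.18 to 0.12 for Myl9, −0.51 to 0.0014 for Tagln and −0.24 to 0.042 for Tpm2. Between BGP and control they ran from −0.66 to 0.53 for Myh11 and −0.28 to 0.24 for Mylk. Between ZK191784 and 25(OH)D they ran from −0.22 to 0.072 for Cfl1, −0.17 to 0.56 for Myh11, −0.26 to 0.046 for Myl9, −0.093 to 0.14 for Mylk and −0.10 to 0.20 for Tpm2. Between ZK191784 and control they ran from −0.12 to 0.093 for Cfl1, −0.33 to 0.34 for Myh11 and −0.14 to 0.39 for Mylk. Under all 14 alternatives Dstn, Tpm1, Cald1, Actb, Cnn3 and Myl10 kept their calls between 25(OH)D and control, and Dstn and Tpm1 between ZK191784 and 25(OH)D. RLE scaling moved the median of all genes by 0.02 or less. Depth limits Cnn1, Myl10 and Tagln most.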
